A study of Caenorhabditis elegans with 2 samples.

Results

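The splicing factor genes are 30 protein-coding genes of Caenorhabditis elegans chosen by a rule on their names, of 19973 protein-coding genes on the 6 nuclear chromosomes. They are 7 snr genes, 13 prp genes, 8 rsp genes and the pair uaf-1 and uaf-2. The data are chromatin immunoprecipitation sequencing (ChIP-seq) of T26A5.8 carrying a C-terminal GFP-FLAG tag, recovered with an antibody against GFP, in an assay that the labels class as ChIP-seq of a transcription factor. The worms were strain OP598, with the unc-119(tm4063) III mutation and the integrated transgene wgIs598. They were young adults, males and females pooled, taken 63 h after synchronization at the starved L1 larva stage. There was 1 group of 2 biological replicates, numbered 3 and 4, and no condition was set against another. The tagged protein came from a transgene in 1 strain, and the chromatin came from whole worms, so a region bound in few cells and a region bound weakly in many cannot be told apart. Control libraries were not analysed here.

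The spliceosome removes introns from pre-mRNA. It is built from small nuclear ribonucleoproteins, in which a ring of Sm proteins clasps a small nuclear RNA (snRNA), and from many further proteins that come and go during the reaction. SR proteins bind exons and recruit this machinery, and U2AF recognises the end of the intron. The genes below are described for where T26A5.8 was found along their DNA, which says nothing of their splicing or expression. Each gene was read in 3 overlapping windows. The start window reached 1000 bp back from the annotated gene start and 200 bp into the gene, the gene body covered the annotated gene, and the end window reached from 200 bp before the annotated gene end to 500 bp past it. A region was placed by its summit, the position of highest signal, on build ce11.

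Of the authors' lists, the thresholded list held 369 regions that passed their test of agreement between replicates (the irreproducible discovery rate, IDR). The pooled list and each replicate's list held 30000 candidate entries each, background included, so that being listed does not by itself show binding. Signal is the authors' value for a region, used only to rank regions within a list, with rank 1 the highest. It ran from 19.3 to 399 with a median of 26.8 in the pooled list, from 12.3 to 230.3 in replicate 3 and from 10.9 to 173 in replicate 4. The thresholded list ran from 87.7 to 394 and is not on the scale of the pooled list. Read depth is unknown, since the lists hold no counts.

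The DNA under the 6 regions that the results below turn on is shown first, as 101 bases (63 for rsp-8) around the summit on the gene's own strand, with the 11 bases centred on the summit in capitals. The rsp-8 region is the member region that passed the authors' threshold, and the stretch shown ends at its stop codon. The other 5 hold the strongest candidates at the ends of member genes. The sequences are from the RefSeq copy of WBcel235, the assembly that ce11 names.
rsp-8 (chrIII:11830666-11830728, plus strand): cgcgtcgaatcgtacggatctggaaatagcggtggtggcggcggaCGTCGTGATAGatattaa
rsp-6 (chrIV:7789715-7789815, minus strand): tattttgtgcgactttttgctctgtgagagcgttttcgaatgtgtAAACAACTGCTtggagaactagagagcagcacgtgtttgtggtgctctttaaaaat
snr-1 (chrIV:17089100-17089200, plus strand): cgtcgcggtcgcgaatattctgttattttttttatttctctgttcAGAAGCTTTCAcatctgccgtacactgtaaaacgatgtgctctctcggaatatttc
rsp-3 (chrIII:12685838-12685938, minus strand): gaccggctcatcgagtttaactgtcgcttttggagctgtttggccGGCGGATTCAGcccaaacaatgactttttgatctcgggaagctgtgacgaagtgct
uaf-2 (chrIV:17116520-17116620, minus strand): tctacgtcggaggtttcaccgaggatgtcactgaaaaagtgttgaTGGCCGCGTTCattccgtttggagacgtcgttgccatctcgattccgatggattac
rsp-5 (chrII:6491349-6491449, plus strand): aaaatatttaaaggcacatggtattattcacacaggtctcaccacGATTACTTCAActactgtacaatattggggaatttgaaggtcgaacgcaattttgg
Their G and C content was 54.0% at rsp-8, 40.6% at rsp-6 and at snr-1, 51.5% at rsp-3, 50.5% at uaf-2 and 36.6% at rsp-5. The stretches at snr-1, rsp-3 and uaf-2 lie around summits that fall in coding exons of the neighbouring genes Y116A8C.43, elpc-2 and cyn-13, so they are partly or wholly another gene's coding sequence.

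A thresholded summit fell at 1 of the 30 splicing factor genes (3.33%), against 2.36% of all protein-coding genes, a share near the background. The gene was rsp-8, which encodes an SR protein, and the summit lay in its gene body. By window the count was 0 of 30 at gene starts, against 0.806% of all protein-coding genes. It was 1 of 30 in gene bodies, against 0.891%, and 0 of 30 at gene ends, against 0.996%. The other 29 members had their nearest thresholded summit 7389 bp away (snr-5) to 830242 bp away (prp-21), with a median of 91685 bp. The same distance was not computed for all protein-coding genes, so these values have no background beside them.

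The rsp-8 region spanned chrIII:11830536-11830895, with its summit at 11830716 in the last coding exon. That is 4298 bp past the gene start and 258 bp before the gene end, 58 bp outside the end window. Its signal was 95.1 in the thresholded list, rank 276 of 369, below the list's median of 106. The matching pooled entry had 75.7, rank 482. The strongest overlapping entry had 52.9 in replicate 3, rank 281, and 31.4 in replicate 4, rank 1059. Replicate 3 thus placed the region higher than replicate 4 did, and the replicate 4 summit lay 224 bp from the thresholded summit. The region is also in the end window of ntl-3, which encodes a subunit of the CCR4-NOT deadenylase complex and meets rsp-8 end to end across 37 bp. These data do not separate the end of ntl-3 from the end of rsp-8 as the place of the signal.

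Candidate entries of the pooled list were spread more widely over the splicing factor genes. A summit lay in the end window of 22 of 30 members (73.3%), against 27.3% of all protein-coding genes. In the start window the count was 19 (63.3%), against 32.8%. In the gene body it was also 19 (63.3%), against 52.0%. In at least 1 window it was 26 (86.7%), against 65.8%, and 12 members had a candidate in all 3 windows, against 10.4%. The difference from all protein-coding genes was thus widest at gene ends and narrowest in gene bodies. Gene length differed little, with a median of 1950 bp in members and 2027 bp in all protein-coding genes. In all, 88 pooled entries lay at members. No test was made of these shares, since there is 1 group and neighbouring genes can share an entry.

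Each replicate's own list gave shares above the background in all 3 windows. At gene ends, replicate 3 had a summit at 22 members (73.3%), against 26.3% of all protein-coding genes, and replicate 4 at 18 of 30, against 26.9%. In both replicate lists at once, 17 of 30 members had an end summit, against 14.5% of all protein-coding genes. At gene starts the counts were 15 of 30, against 32.2% of all protein-coding genes, in replicate 3 and 18 of 30, against 32.6%, in replicate 4. In gene bodies they were 20 (66.7%), against 53.2%, and 21 (70.0%), against 53.7%. The end window was the highest of the 3 for members in replicate 3, whereas in replicate 4 the gene body was higher than both other windows.

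**Figure D1:**
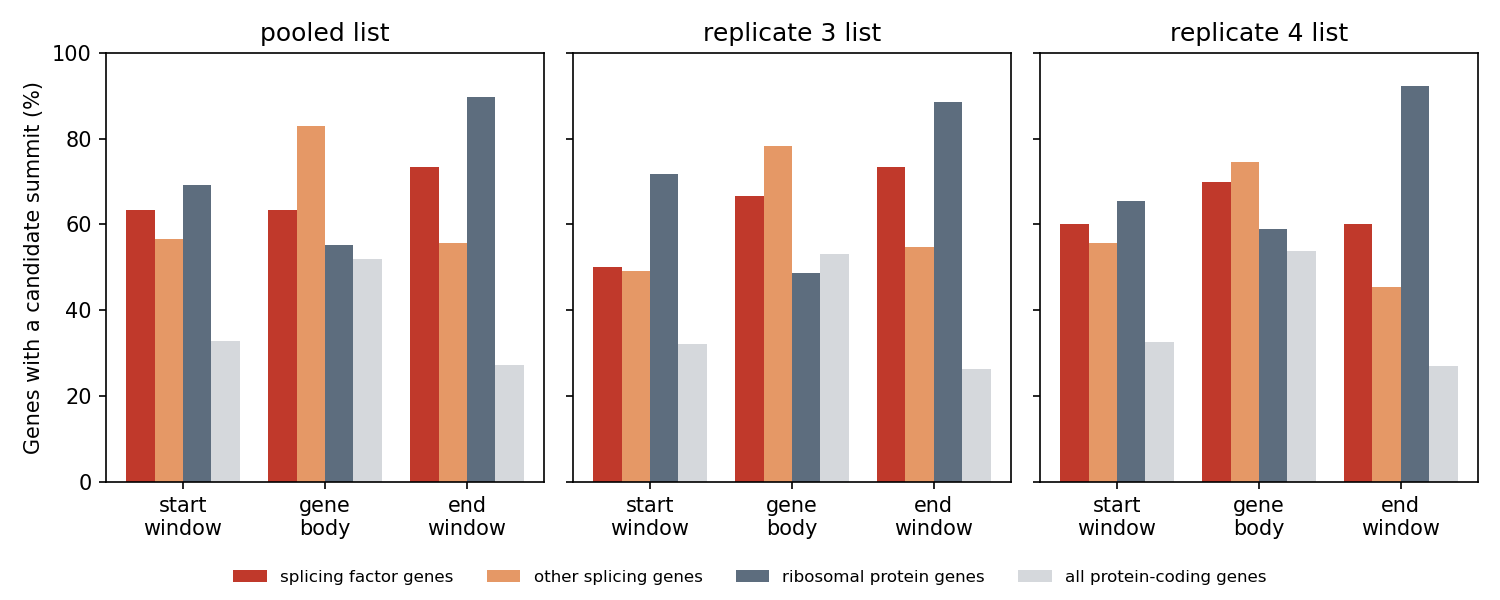
Share of genes (percent, axis from 0) with a candidate summit in the start window, gene body and end window, in the pooled, replicate 3 and replicate 4 lists. Bars stand for splicing factor genes (30), other splicing genes (106), ribosomal protein genes (78) and all protein-coding genes (19973), and at gene ends splicing factor genes reach 73.3% in the pooled list, against 27.3% of all protein-coding genes.

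A wider list of 106 other genes of the spliceosome and of splicing regulation, and the 78 cytosolic ribosomal protein genes, were read in the same way. The uaf-2 end entry also lay at cyn-13 and the rsp-7 start entry at snu-13, both on the list of other splicing genes. Some entries were thus counted for both lists. In the pooled list an end summit was at 73.3% of splicing factor genes, 55.7% of other splicing genes and 89.7% of ribosomal protein genes. A start summit was at 63.3% of splicing factor genes, 56.6% of other splicing genes and 69.2% of ribosomal protein genes. A gene body summit was at 63.3% of splicing factor genes, 83.0% of other splicing genes and 55.1% of ribosomal protein genes. Splicing factor genes thus stood between the 2 other lists in each of these windows. With the windows joined, they were the lowest of the 3 lists, at 86.7%, against 94.3% of other splicing genes and 97.4% of ribosomal protein genes. In the thresholded list, 1 of 30 splicing factor genes had a summit in any window, against 4 of 106 other splicing genes (3.77%) and 21 of 78 ribosomal protein genes (26.9%). The 4 other splicing genes were lsm-8, mog-4, snrp-200 and hrpa-1, with thresholded signals of 111, 89.4, 97.9 and 181. The summits of the first 3 lay at gene starts and that of hrpa-1, an hnRNP gene, 125 bp past the gene end. Each of those 4 summits also lay in a window of a neighbouring gene.

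The strongest member entry was at the end of rsp-6 and the next was the rsp-8 gene body entry of 75.7, followed by 4 further gene ends. Among members with a candidate in the window, the strongest signal per gene had a median of 40.0 at gene ends (range 22.9 to 92.4), against 30.8 for all protein-coding genes with one. At gene starts the median was 29.6 (19.7 to 61.2), against 28.4. In gene bodies it was 33.0 (20.4 to 75.7), against 30.4. The median rank of the strongest entry was 4566 for members at gene ends, against 10201 for all protein-coding genes, and 11413 against 12874 at gene starts. Among the 1000 strongest pooled entries, a limit chosen after the values were seen, 5 members had an end summit (16.7%), against 2.64% of all protein-coding genes. Of the comparison lists, 2 of 106 other splicing genes (1.89%) and 27 of 78 ribosomal protein genes (34.6%) had one. The 5 members were rsp-6, snr-1, rsp-3, uaf-2 and rsp-5, whose sequences are given above.

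The end of rsp-6, the SR protein gene related to mammalian SRp20, had the strongest candidate of any member. The entry spanned chrIV:7789585-7789944, with its summit 82 bp past the gene end and a pooled signal of 92.4, rank 266. Its strongest overlapping entry had 53.8 in replicate 3, rank 262, with a summit 140 bp away, and 42.3 in replicate 4, rank 360, with a summit 7 bp away. Both replicates thus held it among their strongest entries, at differing positions, and the replicate 3 entry nearest to the pooled summit had only 21.7, rank 7251. Of the 266 pooled entries at or above this signal, 253 overlapped a thresholded region and 13 did not, rsp-6 among these. The summit also lay in the start window of imp-3, a signal peptide peptidase family gene that follows rsp-6 on the same strand after 233 bp.

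The end of rsp-3, the counterpart of the SR protein SF2/ASF, had an entry at chrIII:12685708-12686067 with a pooled signal of 73.0, rank 540, and the summit 294 bp past the gene end. Replicate 3 had 37.9, rank 889, with a summit 151 bp away, and replicate 4 had 30.9, rank 1119, with a summit 1 bp away. A further entry in the same end window had a summit at 12686102 and a signal of 42.5, rank 3304. The same replicate entries overlapped it, with summits 63 bp away in replicate 3 and 213 bp away in replicate 4. The replicate 3 summit thus lay nearer to this weaker entry. The stronger summit falls in a coding exon of elpc-2, a gene for an Elongator subunit that overlaps the end of rsp-3 by 44 bp on the opposite strand.

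The end of rsp-5, another SR protein gene, had an entry at chrII:6491219-6491578 with a pooled signal of 65.8, rank 724, and the summit 59 bp past the gene end. Replicate 3 had 42.1, rank 600, at the same summit, and replicate 4 had 25.6, rank 2383, 18 bp away. Replicate 3 ranked it higher, and the summits lay close together. The summit was also in the end window of T28D9.11 and the start window of T28D9.13.

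The other SR genes were lower. At the ends of rsp-2, rsp-7, rsp-1 and rsp-8 the pooled signals were 47.9, 46.2, 44.5 and 32.9. The rsp-8 end entry, 205 bp past the gene end, is distinct from the thresholded region inside that gene, though in replicate 4 the same strongest entry (31.4) overlaps both. The end of rsp-4, the counterpart of the SR protein SC35, had no pooled candidate, and an entry there was listed in replicate 3 only. As a group, SR genes had an end candidate at 7 of 8, beside 27.3% of all protein-coding genes. Their median signal was 47.9 and median rank 2112, beside 30.8 and 10201 for all protein-coding genes with an end candidate.

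Among the Sm genes the end of snr-1, which encodes SmD3, was highest. The entry spanned chrIV:17088970-17089329, with its summit 204 bp past the gene end and a pooled signal of 73.6, rank 527. Replicate 3 had 29.1, rank 2419, with a summit 93 bp away, and replicate 4 had 43.7, rank 318, with a summit 14 bp away. Replicate 4 thus ranked it far higher than replicate 3 did, the reverse of rsp-5. The summit falls in a coding exon of Y116A8C.43, which overlaps the end of snr-1 by 96 bp on the same strand.

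The remaining Sm genes spread over a lower range. The end of snr-2 (SmB) had a pooled signal of 56.0, with 38.3 in replicate 3 and 20.8 in replicate 4. The replicate 4 summit lay 194 bp away, and the replicate 4 entry nearest to the pooled summit had only 14.9, rank 15468. The pooled summit falls in a coding exon and in the start window of ola-1. The ends of snr-6 (SmE), snr-4 (SmD2), snr-5 (SmF) and snr-7 (SmG) had 35.6, 34.1, 32.5 and 32.3. The end entry of snr-5 was not overlapped in replicate 4, and snr-3 (SmD1) had no end candidate. As a group, Sm genes had an end candidate at 6 of 7, beside 27.3% of all protein-coding genes. Their median signal was 34.9 and median rank 6808, beside 30.8 and 10201 for all protein-coding genes with an end candidate.

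Of the U2AF pair, uaf-2 encodes the small subunit, which reads the AG at the end of the intron, and uaf-1 the large subunit, which binds the polypyrimidine tract. The end of uaf-2 had an entry at chrIV:17116390-17116749 with a pooled signal of 70.6, rank 579, and the summit 201 bp past the gene end. Replicate 3 had 31.0, rank 1837, with a summit 5 bp away, and replicate 4 had 40.5, rank 405, with a summit 69 bp away. The summit falls in a coding exon and in the start window of cyn-13, a cyclophilin gene 113 bp further along the same strand. The end of uaf-1 had no pooled candidate, and replicate 4 alone listed one there.

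**Figure D2:**
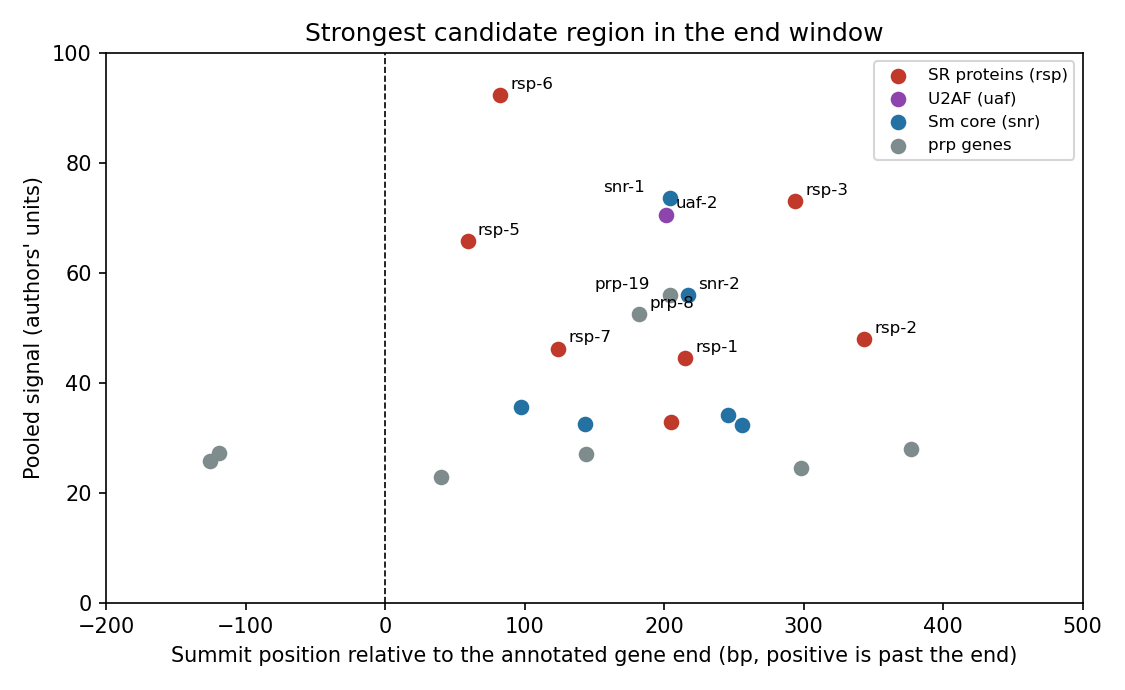
Strongest pooled candidate in the end window of the 22 members that had one, with the distance of its summit from the annotated gene end on the horizontal axis (bp, dashed line at the end) and the authors' pooled signal on the vertical axis. Each point is a gene coloured by group, and 20 of the 22 summits lie past the gene end, with rsp-6 highest at 92.4.

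The prp genes, named after yeast factors of pre-mRNA processing, had the lowest median signal at gene ends of the 4 groups. An end candidate was listed at 8 of 13, beside 27.3% of all protein-coding genes. The median signal was 27.1 and median rank 14570.5, weaker than 30.8 and 10201 for all protein-coding genes with an end candidate. The end of prp-19, whose product is the ubiquitin ligase of a spliceosome-activating complex, had a pooled signal of 56.0, with 23.5 in replicate 3 and 34.4 in replicate 4. Its summit was also in the start window and body of ulp-1, a SUMO protease gene. The end of prp-8, the gene of the core protein of the spliceosome's catalytic centre, had 52.5, with 19.3 in replicate 3 and 33.2 in replicate 4. No window of another gene held the prp-8 end summit.

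The other prp end signals ran from 22.9 to 28.0, close to the pooled list's median of 26.8. They were at prp-39 and prp-40, named for yeast proteins of the U1 particle, at prp-6, prp-31 and prp-38, named for yeast proteins of the U4/U6.U5 particle, and at prp-18, named for a yeast factor of the later catalytic step. In prp-18 and prp-38 the summit lay inside the gene, and the prp-38 entry was overlapped by no entry of either replicate. The 5 prp genes with no end candidate were prp-3, prp-4, prp-9, prp-17 and prp-21. In yeast, Prp3 and Prp4 belong to the particle that brings U4 and U6 snRNA, Prp9 and Prp21 to a complex bound to the U2 particle, and Prp17 to the later catalytic step. Of these, prp-3, prp-4, prp-9 and prp-21 had no pooled candidate in any window. In the replicate lists, prp-3 had a gene body entry in both, prp-9 in replicate 3 only and prp-21 in replicate 4 only, while prp-4 had none in any window of either list.

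**Figure D3:**
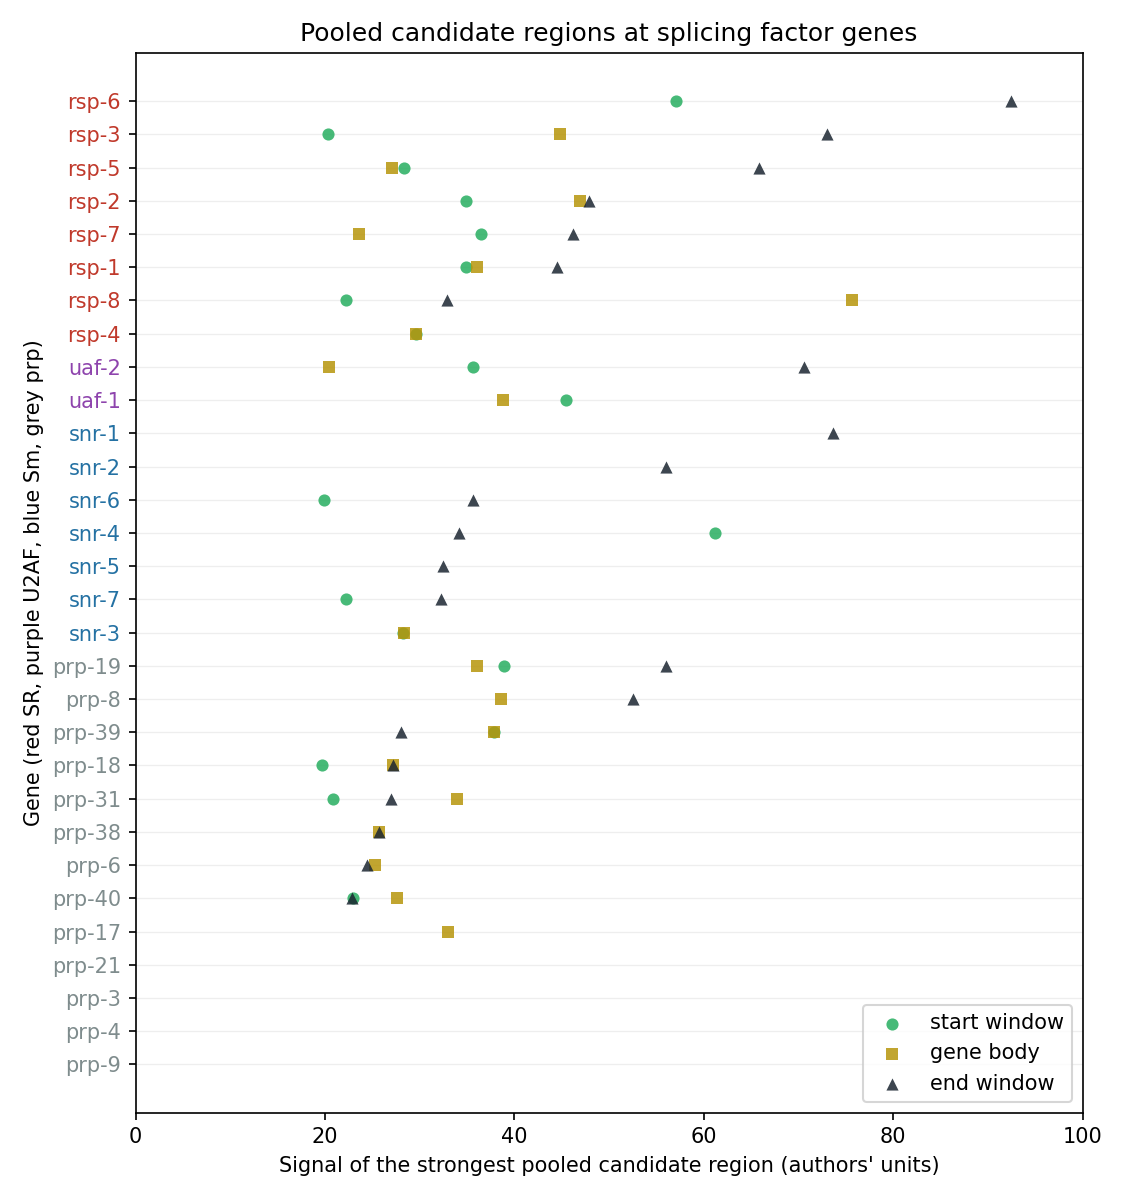
Signal of the strongest pooled candidate (authors' units, horizontal axis from 0) in the start window (circle), gene body (square) and end window (triangle) of each of the 30 splicing factor genes, grouped by family. Rows without a mark had no candidate, as in prp-3, prp-4, prp-9 and prp-21, and a single entry can be marked in more than 1 window where windows overlap.

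Among gene starts, the strongest candidate was upstream of snr-4. It spanned chrV:11980333-11980692, 790 bp upstream of the gene, with a pooled signal of 61.2, rank 938. Replicate 3 had 37.2, rank 931, with a summit 3 bp away, and replicate 4 had 40.3, rank 416, with a summit 191 bp away. The pooled summit lay 252 bp from the snRNA gene C52E4.8 and in the end window of rpt-1, a proteasome ATPase gene, and the replicate 4 summit was displaced towards the snRNA gene. The replicate 4 entry nearest to the pooled summit was 10 bp away and had 24.7, rank 2759.

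The start of rsp-6 had an entry at chrIV:7791210-7791569, 161 bp upstream, with a pooled signal of 57.1, rank 1142. Replicate 3 had 41.3, rank 645, and replicate 4 had 20.7, rank 5449. The pooled summit also lay in the end window of C33H5.13, so it cannot be assigned to rsp-6 alone. The gene rsp-6 thus had a candidate at both ends, with the end signal the higher of the pair in the pooled list and in each replicate. The start of uaf-1 had an entry at chrIII:1076428-1076787, 53 bp upstream, with 45.4, rank 2577. Replicate 3 had 18.0, rank 13106, and replicate 4 had 29.0, rank 1425, and no window of another gene held the summit.

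The next gene starts were those of prp-19 and prp-39. The prp-19 entry at chrIII:5172489-5172848, 624 bp upstream, had 38.9, rank 4589, with 28.8 (rank 2528) in replicate 3 and 14.5 (rank 16618) in replicate 4, and it was also in the start windows of emb-1 and K10D2.5. The prp-39 entry at chrV:5682366-5682725, in an intron 84 bp inside the gene, had 37.9, rank 5026, with 21.2 (rank 7845) in replicate 3 and 20.5 (rank 5656) in replicate 4. It was also in the end window of hmgs-1, the HMG-CoA synthase gene. All other start signals were between 19.7 (prp-18) and 36.5 (rsp-7). Each of the 8 SR genes and both U2AF genes had a start candidate, as did 4 of 7 Sm genes (snr-3, snr-4, snr-6 and snr-7) and 5 of 13 prp genes, beside 32.8% of all protein-coding genes.

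Some members share a start entry with each other. The genes rsp-1 and rsp-2 are divergent neighbours, and a single entry of 34.9, rank 6763, was the strongest in both start windows. The genes rsp-5 and snr-3 are also divergent. An entry of 28.3, rank 13025, lay in the start window of rsp-5 and the body of snr-3, and an entry of 28.2, rank 13118, lay in both start windows. Counts over members therefore count some entries more than once.

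In gene bodies, after rsp-8, the strongest candidate was in an intron of rsp-2, at chrII:11451928-11452287, with 46.9, rank 2279. Replicate 3 had 19.2, rank 10835, and replicate 4 had 24.6, rank 2808. The rsp-3 entry at chrIII:12686354-12686713 lay in the 3′ UTR, 352 bp before the gene end, and had 44.8, rank 2715, with 19.8 (rank 9796) in replicate 3 and 27.2 (rank 1872) in replicate 4. It was also in the end window of elpc-2. Both entries ranked higher in replicate 4 than in replicate 3.

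A coding exon of uaf-1 held an entry at chrIII:1064649-1065008 with 38.8, rank 4624, with 14.6 (rank 21822) in replicate 3 and 24.0 (rank 3106) in replicate 4. An intron of prp-8 held an entry at chrIII:8165750-8166109 with 38.6, rank 4739, with 30.3 (rank 2012) in replicate 3 and no overlapping entry in replicate 4. That prp-8 summit lay 258 bp from the snoRNA gene C50C3.13. The body of prp-17 had 33.0, the only window of that gene with a candidate. Body candidates were present in 7 of 8 SR genes, 9 of 13 prp genes, both U2AF genes and 1 of 7 Sm genes, snr-3, beside 52.0% of all protein-coding genes. The gene body window is as long as the gene, and the Sm genes were short. They ran from 458 bp (snr-6) to 1216 bp (snr-4), against a median of 2027 bp for all protein-coding genes. The part of gene length in these counts was not tested.

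The distance to small RNA genes was measured for every pooled member summit, not for replicate summits. None of the strongest pooled start or end summits of members lay within 200 bp of a tRNA, snoRNA or snRNA gene. At the snr-4 start, however, the pooled summit lay 252 bp from an snRNA gene. The summit of the strongest replicate 4 entry there was displaced 191 bp towards that gene. Among the strongest gene body summits 1 lay within 200 bp, the weak uaf-2 entry of 20.4 at 105 bp from Y116A8C.50. Entries so near a small RNA gene made little difference to all protein-coding genes too. Without them the share with a candidate went from 32.8% to 32.1% at starts, 52.0% to 51.4% in bodies and 27.3% to 26.6% at ends. The low counts are thus no trait of members.

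At gene ends, the summits lay past the annotated end in 20 of 22 members (90.9%), against 80.9% of all protein-coding genes with an end candidate. The median position was 202 bp past the end in members, with quartiles at 104 and 239 bp, against a median of 205 bp in all protein-coding genes. A window of another protein-coding gene also held the end summit in 18 of 22 members (81.8%), against 77.4% of all protein-coding genes with one. With genes of every type counted, the end summits of prp-8, prp-39 and snr-7 alone lay in no other gene's window. Most end summits therefore cannot be assigned to the member alone, at a share near that of other genes.

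Members have close downstream protein-coding neighbours more often than other genes, so end candidates were also read by neighbour. The split was chosen after the values were seen, and only protein-coding genes counted as neighbours. A gene in the same direction began within 500 bp of the end, or overlapped it, in 12 members (40.0%), against 20.6% of all protein-coding genes. Of these 12, 9 had an end candidate, against 35.6% of all protein-coding genes with such a neighbour. With a facing gene within 500 bp, 8 of 11 members had one (72.7%), against 33.8%. With no protein-coding gene within 500 bp, 5 of 7 members had one (71.4%), against 19.4%. This class is not free of near genes of other types, since the rsp-1 end summit lay in the body of the non-coding gene cest-15. The share in members was above the background share in each class, but the classes held only 12, 11 and 7 members. The part of near neighbours in the counts was not tested. The 5 strongest ends, all among the 1000 strongest pooled entries, were divided between the classes with a near neighbour. Of these ends, 3 had a gene in the same direction and 2 a facing gene, and none of the 7 members without one was among them. Of all protein-coding genes, 3.70%, 3.51% and 1.61% of these classes had such an end, so the share was lowest without a near neighbour there too.

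Base composition moved with the presence of a candidate. The end windows had a median G and C content of 36.2% in the 22 members with an end candidate, against 32.5% in the 8 without. In all protein-coding genes it was 35.9% with a candidate, against 33.4% without. Over all 30 members the median was 35.8%, against 34.1% of all protein-coding genes, and its part in the counts was not tested. In the 101 bp centred on the strongest end summit the median was 40.6% both in members and in all protein-coding genes.

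Of the 22 pooled end entries, 16 were overlapped by an entry of both replicates, 5 by replicate 3 only, 0 by replicate 4 only and 1 by neither. Among the 5 strongest, replicate 4 gave a better rank than replicate 3 for snr-1 and uaf-2, and replicate 3 a better rank for rsp-6, rsp-3 and rsp-5. These are ranks of the strongest overlapping entries. For rsp-6 the order reverses with the entries nearest to the pooled summit, at rank 7251 in replicate 3 and 360 in replicate 4. The next ends were divided too, with prp-19 and prp-8 ranked higher in replicate 4 and snr-2 in replicate 3. Only rsp-6 was among the 369 strongest entries of both replicates at a gene end. At gene starts, 11 of 19 strongest entries were overlapped in both replicates, and in gene bodies also 11 of 19. The matching shares for the pooled entries of all protein-coding genes were not computed, so these overlap counts have no background beside them.

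**Figure D4:**
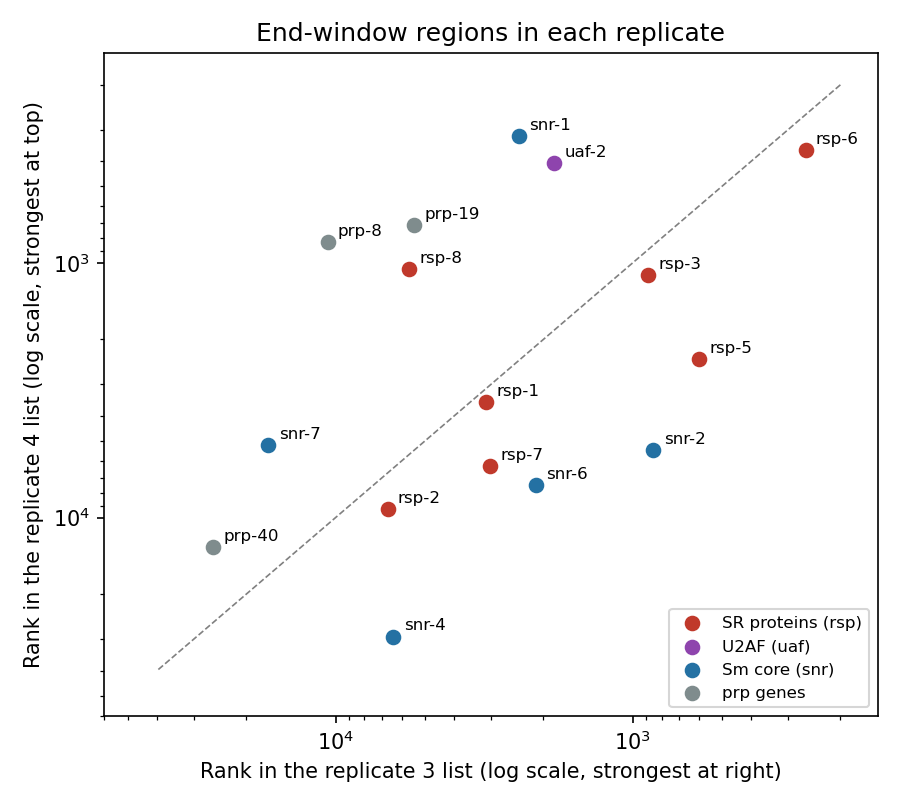
Rank of the strongest overlapping entry in replicate 3 (horizontal) and replicate 4 (vertical), both on log axes with the highest signal towards the top right, for the 16 end entries overlapped in both replicates. Points are genes coloured by group and the dashed line marks equal ranks, with rsp-6 at ranks 262 and 360 nearest the corner.

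The authors' thresholded list on build ce10 was longer, with 609 regions and a lowest signal of 73.9. Each of its regions was taken to the overlapping entry of the ce10 pooled list with the nearest summit. That pooled entry was then matched to the ce11 pooled entry of equal signal on the same chromosome, and 586 ce11 entries were reached. This route was chosen after the values were seen. By it 6 members had a thresholded region in any window (20.0%), against 3.67% of all protein-coding genes, and 5 had it at the gene end (16.7%), against 1.59%. At gene ends, 2 of 106 other splicing genes (1.89%) and 18 of 78 ribosomal protein genes (23.1%) had one. The 5 ends were those of rsp-6, rsp-3, snr-1, rsp-5 and uaf-2, with signals of 82.3, 81.8, 78.8, 78.7 and 77.8 on the ce10 list, all under the 87.7 at which the ce11 list ends. They ranked 429 to 523 of 609. These are the same pooled entries as the 5 member ends among the 1000 strongest, so they are not separate evidence. The region inside rsp-8 had 95.1 in both thresholded lists. Whether the ends of these 5 genes passed the authors' threshold thus depended on which of the authors' thresholded lists was read.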

How the data were processed

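Per the labels, T26A5.8-GFP ChIP-seq was made from 2 biological replicates of whole young adult worms. Reads were not analysed. The authors deposited region lists on builds ce11 and ce10: a candidate list for each replicate, a pooled candidate list of both, and an IDR-thresholded list. Each region holds a signal as the authors deposited it, and a −log10 q-value as deposited, which was not used. The caller, its version and the scaling of the signal were not stated in the sources read. Depth per replicate is unknown.

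Genes were those of Ensembl release 115 on WBcel235 and sequences those of RefSeq. Windows, summits and ranks were computed with Python 3.11.15, pandas 2.3.3 and NumPy 2.4.6, after a test on simulated summits. Replicate values are the strongest entry overlapping the pooled entry, by at least 1 base. Thresholded ce10 regions were linked by overlap to ce10 pooled entries, which were matched to ce11 pooled entries by equal signal (tolerance 0.001), and no coordinates were converted.

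No test was made, since 1 group was measured and genes of a list are not replicates. Every member is named, and full values are given for members with a thresholded summit and for the 5 highest in each window. The members, lists and windows were chosen with earlier results of these data known. The list of other splicing genes had 117 names, of which 11 were not found. Alternatives were other windows, placement by overlap, coding-sequence ends, shorter lists, each replicate alone and leaving out entries near small RNA genes.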

Additional observations from a re-analysis of the deposited data

How the results depend on the processing

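Of 65 recomputed counts, 46 stayed within 1.5 times the reported count and 19 did not, and wider or narrower windows gave the same strongest entry signal for the named genes in 18 recomputations. The snr-4 and prp-19 starts had no candidate in the narrower start window, from 500 bp upstream. With the 5000 strongest pooled entries, candidates were at 4 member starts, 5 gene bodies and 11 gene ends (7.71%, 13.7% and 8.67% of all protein-coding genes). With the 1000 strongest, an alternative chosen after seeing the data, they were at 1 start, 1 body and 5 ends (2.01%, 2.65% and 2.64%). For pooled ends, the count was 17 to 27 of 30 under other window widths, overlap, coding-sequence ends or a single replicate, while the share of all protein-coding genes ran from 22.6% to 38.0%.

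The thresholded counts are small and moved easily. At gene ends the count of 0 became 1 by overlap (1.15% of all protein-coding genes), 1 with coding-sequence ends (0.786%), 1 with the 369 strongest pooled entries (0.966%) and 5 on ce10 (1.59%), also chosen after seeing the data. In gene bodies the count of 1 became 0 with the 184 thresholded regions of highest signal (0.446%) and 0 with the strongest pooled entries (0.831%). In any window it became 0 with those 184 regions (1.20%) and 6 on ce10 (3.67%). With either replicate left out and the 369 strongest entries of the other read instead, counts were 0 to 1 in bodies (0.876% to 0.951%), 1 to 2 at ends (0.951% to 1.08%) and 2 in any window (2.31% to 2.41%): rsp-6 and snr-1 ends in replicate 4, the rsp-6 end and rsp-8 body in replicate 3. Causes of these shifts were not tested. No paired analysis was possible because there is 1 group and no contrast. Depth is unknown, so absence from a list is no evidence of absence from the DNA.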
